A study of Mus musculus with 20 samples.

Results

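The genes of 10 inflammatory and regulatory cytokines were followed in mouse bone marrow-derived macrophages (BMDM): Tnf, Il1b, Il1a, Il1rn, Il6, Il10, Tgfb1, Il16, Mif and Tnfsf9. They were chosen by symbol, and 8 of the 10 were among the 14456 genes with values. Il1a and Il6 were not among them and were not analysed here. The lowest median that any gene with values had was 11 reads per library. The macrophages were grown from the marrow of male C57BL/6J mice of 8 to 12 weeks with M-CSF, the growth factor that drives marrow cells to macrophages. In the glucose experiment the medium held 25 mM glucose for 24 h in the high glucose group (n = 4 libraries). The normal glucose group (n = 4) had 5.5 mM glucose, and 19.5 mM mannitol, a sugar alcohol, matched its osmolarity. In the exosome experiment naive BMDM received PBS, exosomes from BMDM kept in normal glucose (BMDM-NG-exo) or exosomes from BMDM kept in high glucose (BMDM-HG-exo) for 24 h, with n = 4 libraries each. The donor cells of BMDM-NG-exo had 19.5 mM mannitol added where those of BMDM-HG-exo had 19.5 mM glucose added. The comparisons ask how glucose itself, and how vesicles from glucose-treated macrophages, changed the cytokine genes of the cells. The labels do not say whether the libraries of a group came from separate animals, so the p-values measure the spread between libraries.

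TNF and IL-1β are the classical early inflammatory cytokines of macrophages. TNF is made as a membrane protein that is cut free by ADAM17, and IL-1β as a cytosolic precursor that is cut by caspase-1. IL-1 receptor antagonist, the product of Il1rn, occupies the IL-1 receptor without signalling, IL-10 dampens macrophage activation through STAT3, and TGF-β1 is secreted in a latent form that must be released. MIF signals through CD74, IL-16 is a ligand of CD4, and 4-1BB ligand, the product of Tnfsf9, binds a receptor on activated T cells. Several cytokine messages carry AU-rich elements in the 3′ UTR, to which tristetraprolin (Zfp36) and its relatives bind and through which the message is degraded.

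Sequences are shown for Tnf and Il1b because these genes differed between groups. Tnf (ENSMUSG00000024401) lies on the minus strand at chr17:35199381-35202007 and Il1b (ENSMUSG00000027398) on the minus strand at chr2:129364570-129371139, both in GRCm38. The 3′ UTR of the longest coding Tnf transcript in GENCODE M21 is 764 bases long. It holds 8 copies of the AU-rich pentamer ATTTA and 5 of the nonamer TTATTTATT, overlaps included. The nonamer was present in 7.04% of 11395 coding genes with values, and 3 or more copies in 0.535%. The Il1b 3′ UTR, 459 bases long, holds 4 pentamers and no nonamer, while the median over the coding genes was 1 pentamer in a UTR of 949 bases. Il10 has 6 pentamers, Tnfsf9 has 2, Tgfb1 has 1, and Il1rn, Il16 and Mif have none. Of all the coding genes, 25.9% had 4 or more pentamers. The 30 bases of each UTR with the most pentamers, which are in capitals, lie at chr17:35199679-35199708 and at chr2:129364808-129364837.

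Tnf 3′ UTR: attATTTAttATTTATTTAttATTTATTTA

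Il1b 3′ UTR: caaccacttacctATTTATTTAtgtATTTA

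The 250 bases before the transcription start of both genes were taken from RefSeq (GRCm38.p6, minus strand, chr17:35202008-35202257 for Tnf and chr2:129371140-129371389 for Il1b). RefSeq entries of this kind were found for 8 of the 10 genes. Capitals mark the letters TATAAA and GGGNNNNNCC, a loose form of the NF-κB motif. Those of AP-1 (TGANTCA) and C/EBP (TTGCNNAA) were searched too and had no match. Both strands were read, and a stretch that fits on both was counted once, as is the case for the NF-κB letters in Tnf. TATAAA begins 29 bases before the start in Tnf and 31 bases before it in Il1b, and was found in 12.4% of 32851 promoter windows of this length. The loose NF-κB letters occur once in Tnf, 194 bases before the start, and were found in 45.8% of all windows. AP-1 letters were found in 6.75% and C/EBP letters in 9.56% of the windows.

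Tnf promoter: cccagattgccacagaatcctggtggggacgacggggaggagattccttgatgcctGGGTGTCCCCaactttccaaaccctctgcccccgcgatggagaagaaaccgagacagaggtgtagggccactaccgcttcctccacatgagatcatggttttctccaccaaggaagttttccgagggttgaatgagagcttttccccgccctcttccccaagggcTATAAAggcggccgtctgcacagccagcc

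Il1b promoter: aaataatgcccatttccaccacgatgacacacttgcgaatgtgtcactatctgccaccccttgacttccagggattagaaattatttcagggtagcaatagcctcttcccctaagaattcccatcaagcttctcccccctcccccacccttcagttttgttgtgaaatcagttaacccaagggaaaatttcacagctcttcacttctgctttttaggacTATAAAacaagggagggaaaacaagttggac

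The other genes lie, in GRCm38, at chr2:24336853-24351494 (Il1rn, plus strand), chr1:131019845-131024974 (Il10, plus), chr7:25687002-25705077 (Tgfb1, plus), chr7:83642825-83745726 (Il16, minus), chr10:75859353-75860240 (Mif, minus) and chr17:57105325-57107757 (Tnfsf9, plus). Il16 overlaps Stard5, and Tnfsf9 overlaps Gm11110, on the opposite strand. Il1b overlaps Il1bos, which had no values, on the opposite strand as well. The authors counted reads by strand, which keeps such pairs apart. Il16 also overlaps Phgdh-ps1 on its own strand, a pair that strand does not keep apart, and Phgdh-ps1 had no values.

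The libraries held between 34016445 and 56310712 counted reads (median 43311931). The median depth was 36622308 reads with PBS, 47923964 with BMDM-NG-exo and 44199837 with BMDM-HG-exo, and was 41060624 in normal and 41896666 in high glucose. The 8 macrophage markers examined (Adgre1, Csf1r, Cd68, Itgam, Mertk, Fcgr1, Cd14 and Lyz2) all had values, and their summed normalized count was between 628420 and 878735, mostly from Lyz2. None of the 6 T cell, 5 NK cell, 6 dendritic cell and 5 mast cell or basophil markers had values. Of the B cell markers only Cd79b (at most 68.0) had values, and of the 8 neutrophil markers 4 did, with a sum of at most 269.9. Of the 5 fibroblast markers, Col1a1, Col1a2 and Col3a1 had values, with a sum between 107 and 349, and Dcn and Pdgfra did not. Of the endothelial markers, Kdr and Vwf had values and Cdh5 and Tek did not. The summed macrophage markers ran from 808014 to 878735 in high and from 628420 to 702912 in normal glucose. In the exosome experiment they were between 794502 and 841224 with PBS, whereas BMDM-NG-exo gave 717507 to 773976 and BMDM-HG-exo gave 735061 to 759636. The sum of the macrophage markers, mostly Lyz2, was thus highest in high glucose and with PBS, as was Tnf. The sum of Kdr and Vwf was lower with PBS (6589 to 7132) than with either kind of exosome (7678 to 9531). The part of marker levels and of depth in the results was not tested. In bulk samples, fewer cells that make a transcript and less transcript per cell cannot be told apart.

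Per kilobase of annotated exon, Tgfb1 had the highest level of the cytokine genes, with a mean of 2242 normalized counts over the 20 libraries, followed by Mif with 1519. A normalized count is the number of reads of a gene divided by a size factor of the library. Il16 followed with 449 per kilobase, Tnf with 249, Il1rn with 96.8, Tnfsf9 with 76.9, Il1b with 49.0 and Il10 with 28.6. The order spans the range of the transcriptome: Tgfb1 lay at the 96.3rd percentile of all genes with values and Il10 at the 20.0th. Unless said otherwise, the values that follow are normalized counts of a gene, not scaled to length. The most abundant genes varied least, with a coefficient of variation within a group between 2.11% and 6.02% for Tgfb1 and between 3.12% and 6.09% for Il16. The scarce ones varied most, with between 15.2% and 62.9% for Il1b and between 22.8% and 51.2% for Il10. Il10 rested on 8 to 68 reads per library and Il1b on 28 to 162, so that small differences in these genes were not detectable at this depth.

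**Figure D1:**
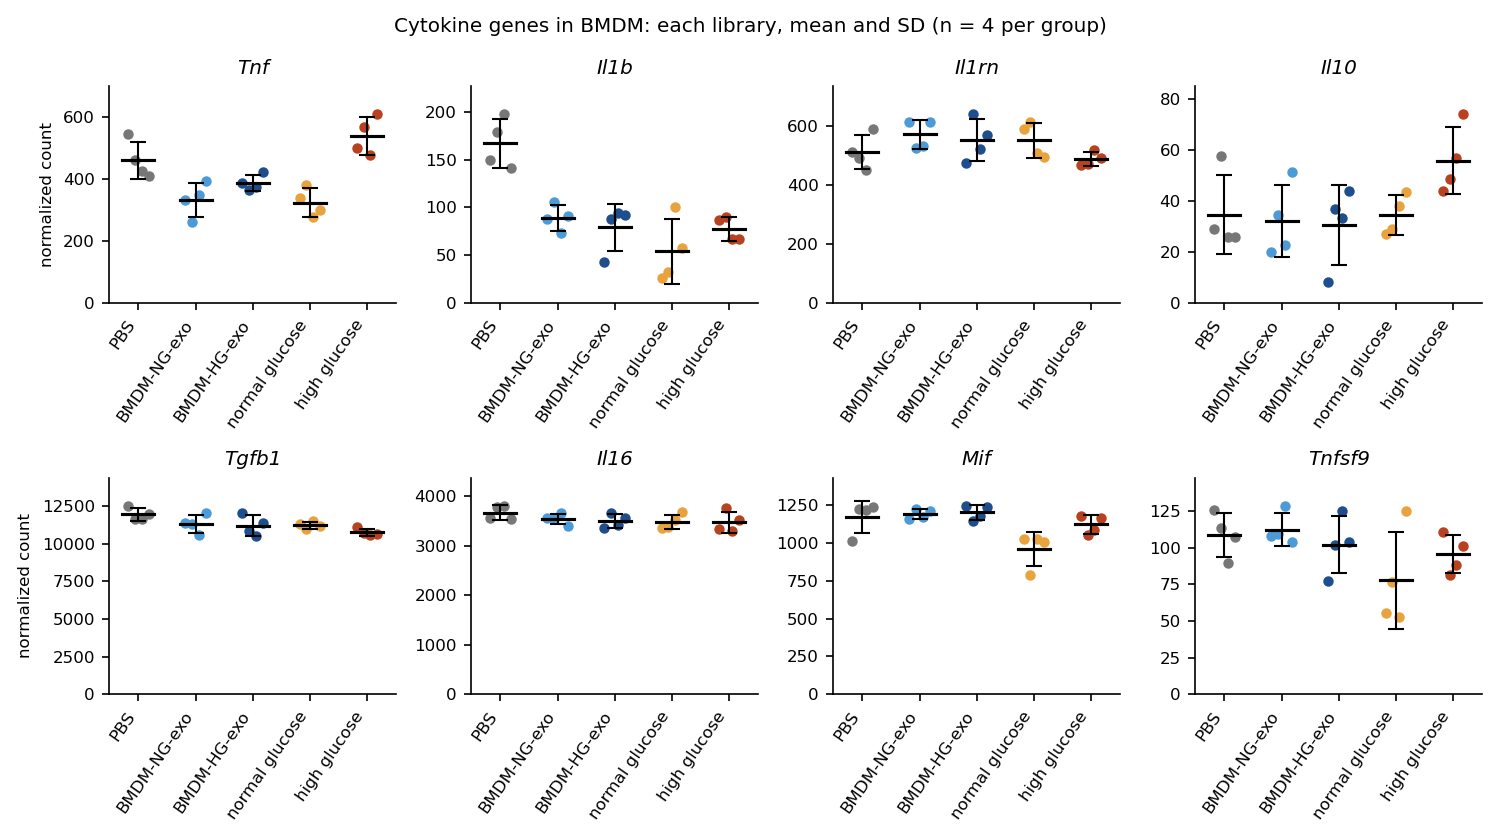
Normalized count (vertical axes, from 0, a scale of its own for each gene) of the 8 cytokine genes in each library of the 5 groups, with the mean (long line) and SD (bars, n = 4). The high-glucose libraries lie above all normal-glucose libraries for Tnf, Il10 and Mif, and the PBS libraries lie above all exosome libraries for Il1b.

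High glucose raised Tnf and, by less, Mif. Tnf was at 500.0, 569, 476 and 608 normalized counts in the high-glucose libraries 1, 2, 4 and 6. It was at 339, 379.8, 277 and 298 in the normal-glucose libraries 1, 3, 5 and 6. Every high-glucose library lay above every normal-glucose library. The means were 538 ± 61.0 and 323 ± 45.6 (SD, n = 4 each), a ratio of 1.66, and the log2 fold change was 0.74 (SE 0.11, adjusted p = 8.6e-06, limma). Tnf stayed called in all 8 fits with 1 library left out, with adjusted p-values from 8.4e-07 to 2.7e-04. It was also called under each other setting, with an adjusted p of 0.022 without a trend of the variance.

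Mif, whose product also has an enzymatic tautomerase activity, was at 1183, 1057, 1087 and 1169 in high glucose and at 1025, 791, 1027 and 1006 in normal glucose. The groups did not overlap, but the gap between the lowest high-glucose and the highest normal-glucose library was small. The log2 fold change was 0.23 (SE 0.077, adjusted p = 0.041). The call was lost in 4 of 8 fits with 1 library left out: without normal glucose 3 (log2 fold change 0.14, adjusted p = 0.23), high glucose 1 (0.12), high glucose 4 (0.059) or high glucose 6 (0.13). It was also lost with quantile normalization (adjusted p = 0.082) and when limma fitted 1 prior variance for all genes in place of a mean-dependent trend (0.22). The annotation holds 2 genes named as Mif pseudogenes, neither of which had values, so reads from such copies could be counted for Mif or be lost.

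Il1b and Il10 were higher on average in high glucose but did not pass the test. Il1b was at 86.9, 90.0, 67.2 and 66.4 in high glucose and at 26.0, 32.0, 101 and 57.8 in normal glucose. The normal-glucose libraries spanned the high-glucose ones, since library 5 had the highest value of all 8. The log2 fold change was 0.70 (SE 0.31, 95% interval 0.06 to 1.33, adjusted p = 0.15), and without normal glucose 5 it was 1.06 (adjusted p = 0.023). Il10 was at 43.9, 48.7, 56.6 and 74.0 in high glucose and at 26.9, 28.8, 37.9 and 43.6 in normal glucose. The groups did not overlap by a narrow gap, and the log2 fold change was 0.69 (SE 0.31, adjusted p = 0.15).

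For the other genes the differences were small. Il1rn had a log2 fold change of -0.17 (95% interval -0.37 to 0.02), Tgfb1 of -0.06 (-0.13 to 0.01), Il16 of -0.00 (-0.10 to 0.10) and Tnfsf9 of 0.37 (-0.13 to 0.88), none of them called. With quantile normalization alone Tgfb1 was called, with a log2 fold change of -0.12 (adjusted p = 0.012). In all, 2 of 8 cytokine genes were called, beside 1914 of 14425 genes tested (13.3%), of which 1116 were higher and 798 lower. With quantile normalization 789 were higher and 872 lower. The groups did not overlap for 3 of the 8, Tnf, Il10 and Mif, beside 16.3% of all genes. The median log2 fold change of the 8 was 0.30, beside -0.00 for all genes.

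**Figure D2:**
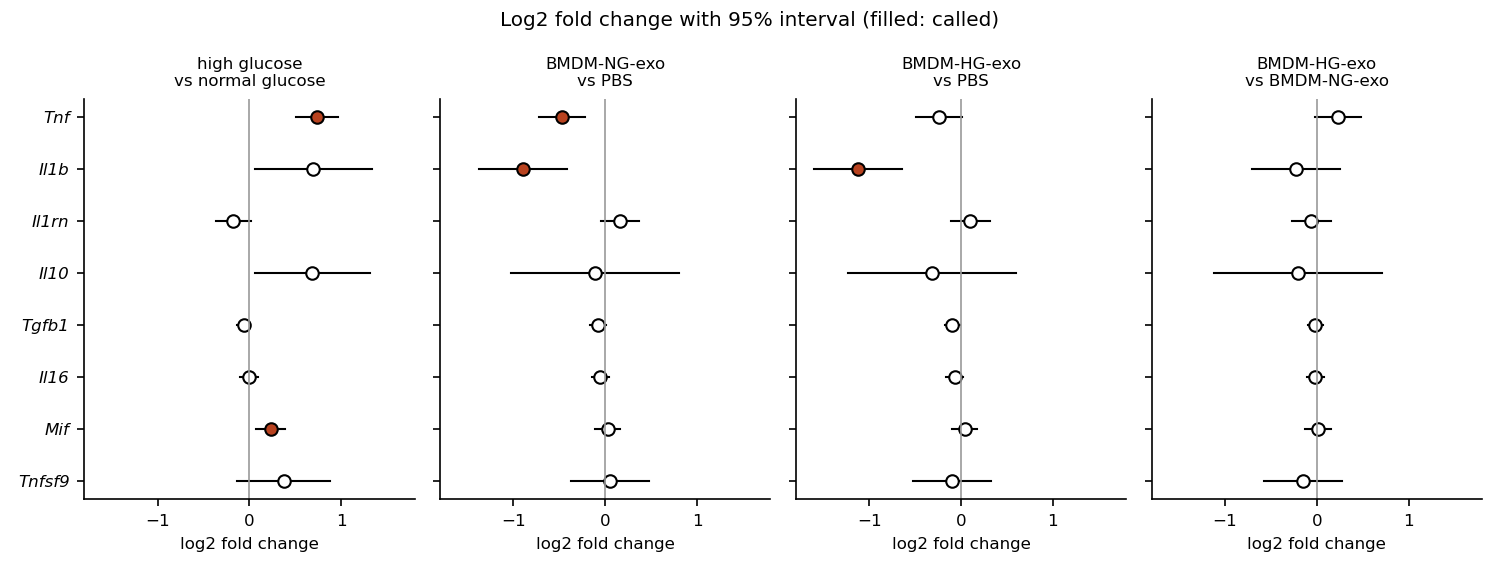
Log2 fold change (horizontal axes) of each cytokine gene in 4 comparisons, with its 95% interval (lines), filled where called. Tnf and Mif are filled for high against normal glucose, Tnf and Il1b for BMDM-NG-exo against PBS, Il1b for BMDM-HG-exo against PBS, and none for BMDM-HG-exo against BMDM-NG-exo.

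Exposure to macrophage exosomes lowered Il1b, whichever glucose concentration the donor cells had been kept in. Il1b was at 149, 179, 198 and 142 in the PBS libraries 1 to 4. It was at 87.7, 106, 72.7 and 90.9 with BMDM-NG-exo and at 42.3, 88.2, 94.2 and 91.6 with BMDM-HG-exo. All 8 exosome libraries lay below all 4 PBS libraries. The means were 167 ± 26.1 with PBS, 89.2 ± 13.5 with BMDM-NG-exo and 79.1 ± 24.7 with BMDM-HG-exo (SD, n = 4 each). With BMDM-HG-exo the ratio to PBS was 0.473 and the log2 fold change -1.13 (SE 0.24, adjusted p = 0.0016), and the gene was called in all 12 fits with 1 library left out and under each other setting. With BMDM-NG-exo the ratio was 0.534 and the log2 fold change -0.90 (SE 0.24, adjusted p = 0.022). This call was lost without PBS 2 (adjusted p = 0.078), PBS 3 (0.083) or BMDM-NG-exo 3 (0.10), and without a trend of the variance (0.16). Within the 4 label dates, which the 3 groups share, Il1b was lower than with PBS on 4 of 4 dates for both kinds of exosome.

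Tnf was lower with BMDM-NG-exo than with PBS. It was at 543, 462, 425 and 408 with PBS, at 331, 261, 346 and 392 with BMDM-NG-exo, and at 387, 364, 373 and 423 with BMDM-HG-exo. The BMDM-NG-exo libraries lay below all PBS libraries, the highest of them by a small gap, and the BMDM-HG-exo libraries overlapped with PBS. The log2 fold change with BMDM-NG-exo was -0.47 (SE 0.12, adjusted p = 0.020), with means of 333 ± 54.5 and 459.5 ± 60.2. The call was lost without PBS 1 (adjusted p = 0.12), PBS 2 (0.056) or BMDM-NG-exo 2 (0.14), and without a trend of the variance (0.15). With BMDM-HG-exo the log2 fold change was -0.24 (95% interval -0.49 to 0.01, adjusted p = 0.32). Tnf was lower than with PBS on 4 of 4 dates with BMDM-NG-exo and on 3 of 4 with BMDM-HG-exo. The comparisons with PBS share the same 4 control libraries.

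**Figure D3:**
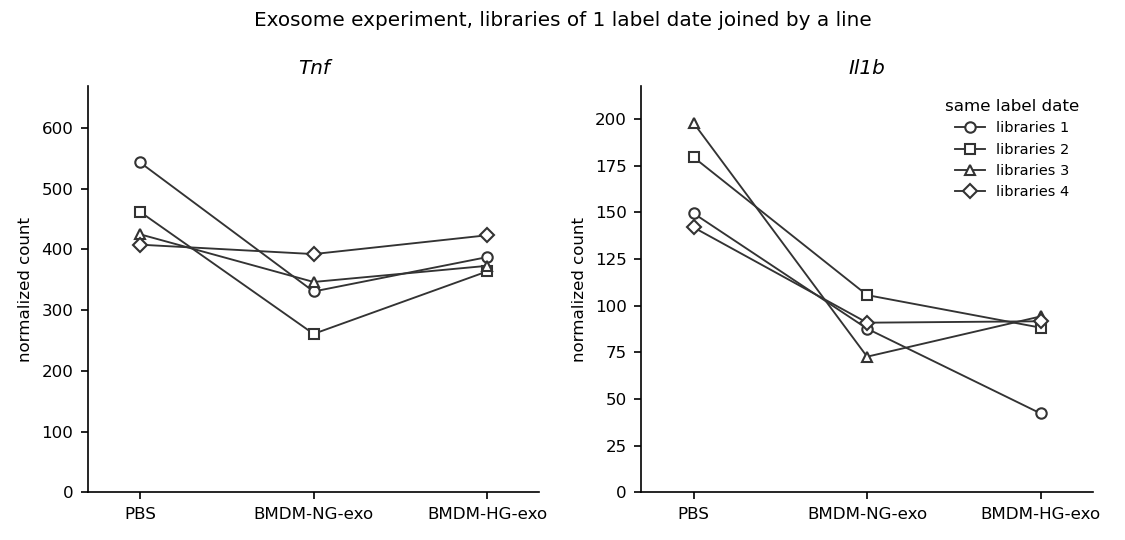
Normalized count (vertical axes, from 0) of Tnf and Il1b in the 12 libraries of the exosome experiment, where a line joins the 3 libraries of 1 label date. All 4 lines fall from PBS to BMDM-NG-exo for both genes, and Il1b of the libraries 1 falls further to 42.3 with BMDM-HG-exo.

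The calls were 2 of 8 cytokine genes for BMDM-NG-exo against PBS, beside 3% of 14413 genes, and 1 of 8 for BMDM-HG-exo against PBS, beside 4.84%. A gene of the exosome experiment was called only where its log2 fold change was also at least 0.15 in size. The groups did not overlap for 2 of the 8 with BMDM-NG-exo, beside 8.27% of all genes, and for 1 of the 8 with BMDM-HG-exo, beside 10%. The other 6 genes were not called in either comparison. Il1rn had log2 fold changes of 0.16 with BMDM-NG-exo (95% interval -0.05 to 0.37) and 0.10 with BMDM-HG-exo (-0.11 to 0.31). Tgfb1 had -0.08 (-0.16 to 0.01) and -0.09 (-0.18 to -0.01), Il16 had -0.05 and -0.07, and Mif had 0.03 and 0.04. The intervals were wide for Tnfsf9 (-0.37 to 0.48 with BMDM-NG-exo and -0.52 to 0.32 with BMDM-HG-exo) and wider for Il10 (-1.03 to 0.80 and -1.23 to 0.60). With BMDM-HG-exo, library 1 was at 8.05 for Il10 on 8 reads.

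The medium of the donor cells, with added glucose or added mannitol, is the difference between the exosome groups, so glucose and mannitol cannot be told apart. When BMDM-HG-exo was set against BMDM-NG-exo, no cytokine gene was called by limma or edgeR. DESeq2 called none of the 5 for which it gave an adjusted p, and gave none for Il1b, Il10 and Tnfsf9. At an unadjusted p under 0.05 the count was also 0 of 8 in limma. Among all genes 2 were called by limma (0.0139%), Thbs1 and Selenop, both lower and named here after their values were seen, 1 by edgeR and 25 by DESeq2, and 942 had an unadjusted p under 0.05. With the label date as a block, 22 genes were called and again none of the 8. Tnf was higher with BMDM-HG-exo on 4 of 4 dates, but the log2 fold change of 0.23 (95% interval -0.02 to 0.48) had an adjusted p of 0.81. Tnfsf9 was lower on 4 of 4 dates, with a log2 fold change of -0.15 (adjusted p = 0.96). The intervals were -0.71 to 0.25 for Il1b, -0.27 to 0.15 for Il1rn, -1.11 to 0.71 for Il10 and -0.58 to 0.27 for Tnfsf9. They were narrower for Tgfb1 (-0.10 to 0.07), Il16 (-0.11 to 0.08) and Mif (-0.13 to 0.15). Against PBS and BMDM-NG-exo combined, BMDM-HG-exo gave 0 calls among the 8 by limma and edgeR, and by DESeq2 0 among the 7 with an adjusted p (Il10 had none), beside 0.201% of all genes. There 1 of the 8, Il1b, was below 0.05 in limma before adjustment (log2 fold change -0.68, adjusted p = 0.31), beside 1511 of 14413 genes.

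The effect of high glucose on the cells and the effect of high-glucose exosomes, each against its normal-glucose counterpart, were set against each other in a fit of all 20 libraries. No cytokine gene passed, beside 4.74% of 14449 genes. Tnf came nearest, with a difference of 0.51 on the log2 scale (SE 0.17, adjusted p = 0.083), and Il1b had 0.92 (SE 0.41, adjusted p = 0.22). Before adjustment 3 of the 8, Tnf, Il1b and Mif, were below 0.05, beside 2459 of the 14449 genes. DESeq2 called Tnf (adjusted p = 0.047). So did limma without BMDM-NG-exo 2 (0.023) or normal glucose 3 (0.043), and limma called Il1b without normal glucose 5 (0.045).

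The balance of Il1rn and Il1b, antagonist and agonist of the same receptor, was lowest with PBS. Per kilobase of exon, Il1rn was at 1.19, 0.949, 0.789 and 1.43 times Il1b in the PBS libraries. It was at 2.42, 1.72, 2.54 and 2.33 times Il1b with BMDM-NG-exo and at 3.86, 2.51, 1.91 and 2.15 times with BMDM-HG-exo. All exosome libraries lay above all PBS libraries, and most of the difference came from Il1b. In high glucose the ratio was between 1.81 and 2.66. In normal glucose it was between 1.74 and 7.84, a range that included all the high-glucose libraries. The ratio is a description of genes already tested and was given no test.

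**Figure D4:**
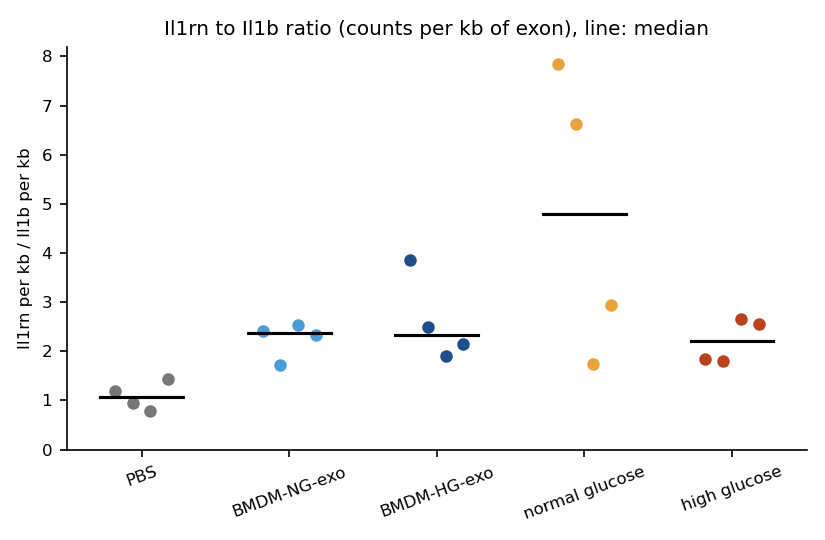
Ratio of Il1rn to Il1b, both as normalized counts per kilobase of exon (vertical axis, from 0), in each library of the 5 groups, with the median as a line. The PBS libraries lie between 0.789 and 1.43, below all other libraries, and the normal-glucose libraries spread most.

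Of 20 receptor chains and binding partners of these cytokines, 17 had values. In high glucose 4 were called higher and 3 lower, beside 13.3% of all genes called, with a median log2 fold change of 0.01. Tnfrsf1b, the TNF receptor 2 of leukocytes, rose with a log2 fold change of 0.26 (adjusted p = 3.7e-07), while TNF receptor 1 (Tnfrsf1a) had 0.07 (adjusted p = 0.32). Cd74, the receptor of MIF and invariant chain of MHC class II, rose (0.48, adjusted p = 5.5e-09), and its co-receptor Cd44 fell (-0.21). Cd9, a tetraspanin that also binds IL-16, rose (0.26). Of the IL-10 receptor chains, Il10ra rose (0.15, adjusted p = 0.0037) and Il10rb fell (-0.12, adjusted p = 0.035). Il10ra was not called with quantile normalization (adjusted p = 0.072), and Il10rb was called in 2 of 8 fits with 1 library left out. Il6st, the signalling chain for the IL-6 family, fell (-0.11) and was called in 4 of 8 fits with 1 library left out. Il1r1, the signalling IL-1 receptor, was near the lower limit of the values, with 24 ± 8.04 in high and 10.8 ± 5.14 in normal glucose (SD, n = 4 each), and was not called (adjusted p = 0.13). The decoy receptor Il1r2 and the 4-1BB gene Tnfrsf9 had no values. Without a trend of the variance 3 were called higher and 0 lower, and with 1 library left out between 1 and 3 were called lower.

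After exosomes, Il10ra and Cd74 were the receptor genes that fell, beside 3% of all genes called with BMDM-NG-exo and 4.84% with BMDM-HG-exo. Il10ra fell with log2 fold changes of -0.20 with BMDM-NG-exo and -0.19 with BMDM-HG-exo (adjusted p = 9.4e-04 and 0.0011). Cd74 fell with -0.58 and -0.77 (adjusted p = 1.3e-08 and 9.5e-12). Cd9 rose with BMDM-HG-exo (0.16, adjusted p = 0.030, called in 9 of 12 fits with 1 library left out), and its log2 fold change with BMDM-NG-exo was 0.03 (adjusted p = 0.85). Without a trend of the variance Cd74 was the only call in both comparisons. The TGF-β receptors Tgfbr1 and Tgfbr2 were called in none of these comparisons.

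Of 24 proteases and carriers that release or activate the cytokines, 21 had values. The calls among them stand beside 13.3% of all genes in high glucose, and 3% with BMDM-NG-exo and 4.84% with BMDM-HG-exo against PBS. High glucose raised 5, among them Adam17, which sheds TNF (log2 fold change 0.16, adjusted p = 0.0014), and Rhbdf2, which carries ADAM17 to the surface (0.18, adjusted p = 0.031). With quantile normalization neither Adam17 (adjusted p = 0.10) nor Rhbdf2 (0.13) was called. Rhbdf2 was called in 3 of 8 fits with 1 library left out. The others were Itgav, the integrin chain that frees latent TGF-β (0.20), the protease Capn2 (0.11) and Furin (0.12), which cleaves the TGF-β precursor. Ltbp3, which tethers latent TGF-β, fell (-0.16), with groups that overlapped. In fits with 1 library left out, Furin was called in 1 of 8, and Capn2 and Ltbp3 in 3 of 8 each. The median log2 fold change of the list was 0.12. With quantile normalization 2 were called higher and 1 lower, without a trend of the variance none, and with 1 library left out between 2 and 5 higher and between 0 and 1 lower. Casp1, which cuts pro-IL-1β, was not called in any comparison (0.10 in high glucose, 0.01 with BMDM-HG-exo). With BMDM-NG-exo against PBS 4 fell: Rhbdf2 (-0.23), the pore protein Gsdmd (-0.19), the inflammatory caspase Casp4 (-0.35) and the membrane metalloproteinase Mmp14 (-0.49). With BMDM-HG-exo 3 fell: Gsdmd (-0.18), Casp4 (-0.37) and Mmp14 (-0.81). Without a trend of the variance these counts were 0 and 1, and with 1 library left out they were between 1 and 4 and between 2 and 4.

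All 17 RNA-binding proteins that control the decay of cytokine messages had values, among them the tristetraprolin family, which binds AU-rich stretches such as the one shown for Tnf. Of all genes, 13.3% were called in high glucose, and 3% with BMDM-NG-exo and 4.84% with BMDM-HG-exo against PBS. In high glucose, Zfp36 (log2 fold change -0.29, adjusted p = 1.1e-04) and Zfp36l1 (-0.30, adjusted p = 4.0e-06) fell, while their relative Zfp36l2 rose (0.15, adjusted p = 0.0032). Parn, a deadenylase, fell (-0.27), and the regnase-family gene Zc3h12c (0.36) and Khsrp (0.14) rose. With quantile normalization 1 of these, Zc3h12c, stayed called higher. With BMDM-HG-exo against PBS, 5 fell: Zfp36l1 (-0.33), Zfp36 (-0.30), Zfp36l2 (-0.15), the endonuclease regnase-1 gene Zc3h12a (-0.47) and N4bp1 (-0.24). With BMDM-NG-exo, Zc3h12a (-0.40) and N4bp1 (-0.24) fell, and with the label date as a block Zfp36l1 was called too (adjusted p = 0.024). Zfp36 fell in high glucose, where Tnf was higher and Il1b was not called. It also fell with BMDM-HG-exo, where Il1b was lower and Tnf was not called (-0.24). A part of message decay in these differences was not tested. Without a trend of the variance, 1 rose and 1 fell in high glucose, 1 fell with BMDM-NG-exo and 2 fell with BMDM-HG-exo. Zfp36 was then not called in high glucose (adjusted p = 0.070).

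All 26 feedback and target genes of the cytokine receptors had values, and most calls among them were higher in high glucose and lower after exosomes. Most calls among all genes had the same directions. In high glucose 13.3% of all genes were called (1116 higher and 798 lower). Against PBS, 3% were called with BMDM-NG-exo (128 higher and 304 lower) and 4.84% with BMDM-HG-exo (254 higher and 444 lower). High glucose raised 9 and lowered 1, Etv3 (-0.12), with a median log2 fold change of 0.18. The NF-κB targets Nfkbia, the gene of IκBα (0.40, adjusted p = 9.9e-08), Nfkbiz (0.50), Tnip3 (0.41), Tnip1 (0.19) and Tnfaip3, the gene of A20 (0.24), rose. So did Tgfbi (0.25) and Skil (0.23), both induced by TGF-β, Sbno2 (0.16), which is induced by IL-10, and Birc3 (0.14). In fits with 1 library left out, Birc3 was called in 3, Etv3 in 4, Tnfaip3 in 6 and Sbno2 in 7 of 8. With quantile normalization neither Sbno2 (adjusted p = 0.077) nor Birc3 (0.17) was called in high glucose. With BMDM-NG-exo against PBS 8 fell and 0 rose: Nfkbiz (-0.50, adjusted p = 2.0e-06), Tnip3 (-0.43), Bcl3 (-0.42), Nfkbia (-0.35), Tnfaip3 (-0.33), Birc3 (-0.24), Tgfbi (-0.22) and Skil (-0.17). With BMDM-HG-exo 10 fell and 0 rose, with a median log2 fold change of -0.20: Bcl3 (-0.56, adjusted p = 1.9e-06), Nfkbiz (-0.43), Tnip3 (-0.42), Tnfaip3 (-0.40), Birc3 (-0.34), Nfkbia (-0.32), Tgfbi (-0.30), Skil (-0.25), Socs3 (-0.91) and Nfil3 (-0.32). Socs3, the STAT3-induced brake on cytokine signalling, had the largest log2 fold change of them, at 121 ± 33.6 against 228 ± 54.7 with PBS (SD, n = 4 each). With 1 library left out, between 7 and 10 were called higher in high glucose, between 7 and 9 lower with BMDM-NG-exo, and between 9 and 11 lower with BMDM-HG-exo. Without a trend of the variance these counts were 4, 5 and 7.

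**Figure D5:**
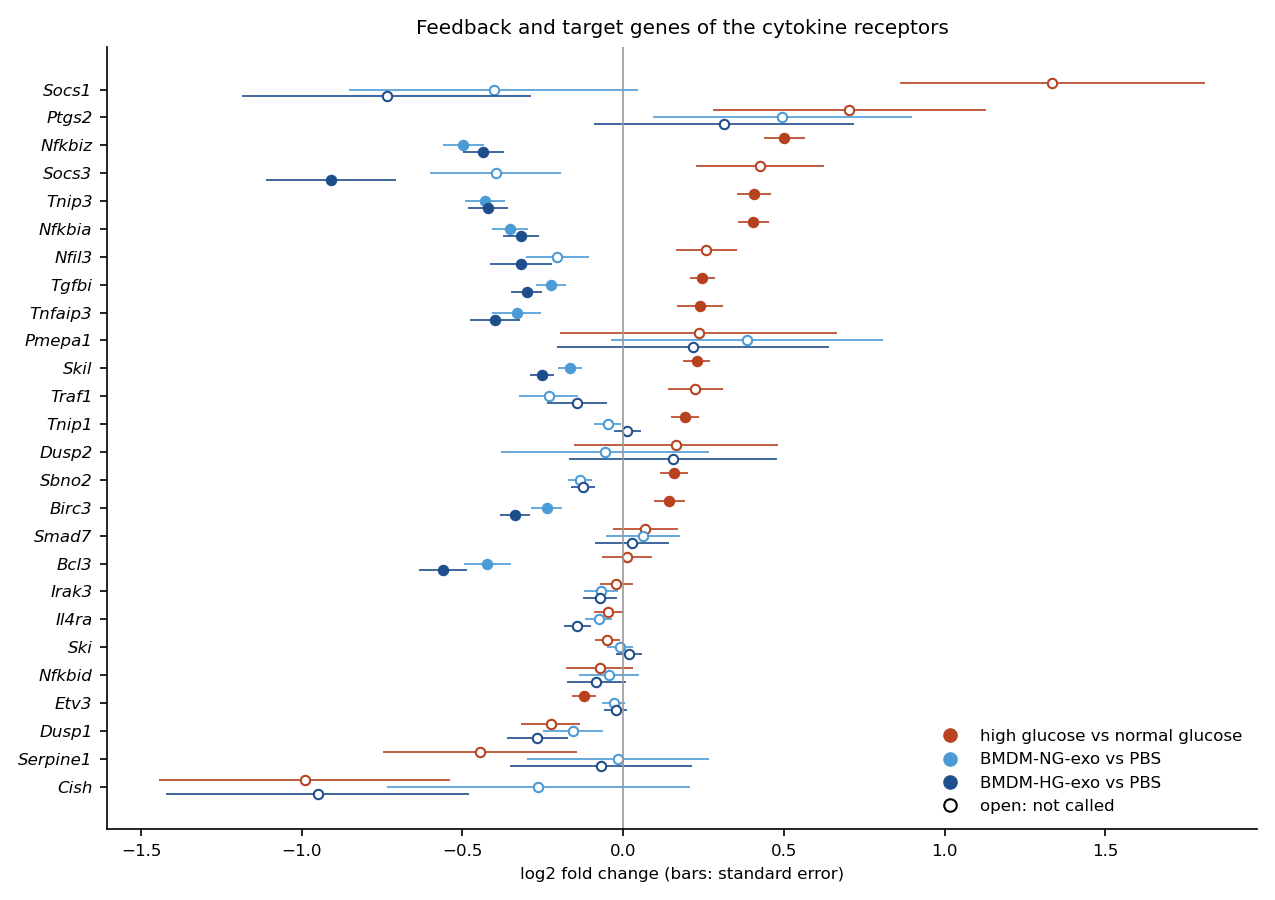
Log2 fold change (horizontal axis, bars are standard errors) of the 26 feedback and target genes, ordered by the change in high glucose, for high against normal glucose, BMDM-NG-exo against PBS and BMDM-HG-exo against PBS, filled where called. Nfkbiz, Tnip3 and Nfkbia lie to the right of 0 in high glucose and to the left with both kinds of exosome.

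Neither the receptors, the proteases, the decay factors nor the feedback genes gave a call by limma for BMDM-HG-exo against BMDM-NG-exo. Against the combined controls, Zfp36l1 (log2 fold change -0.25, adjusted p = 0.040) was the 1 call in these 4 lists, and it was lost with the label date as a block (0.061) and without a trend of the variance (0.40). It was kept in 4 of 12 fits with 1 library left out. DESeq2 called 3 feedback genes (Skil, Birc3 and Socs3), 2 decay factors (Zfp36 and Zfp36l1) and 1 protease (Mmp14) lower, and edgeR called Zfp36l1 and the receptor Cd74 lower.

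Within the groups, the cytokine genes did not vary together to a great extent. After the group means were removed, the highest correlation between any 2 of the 8 over the 20 libraries was that of Il1b with Il10 (Pearson r = 0.54, Spearman rho = 0.48, r = 0.64 without the 2 libraries farthest from the median of Il1b). The lowest Pearson r were those of Tnf with Mif (-0.48, and -0.57 without the 2 libraries farthest from the median of Tnf) and Tnf with Il1b (-0.43, and -0.47). The genes with the most similar pattern were, among those whose mean reached 50 normalized counts, Prdm10 (r = 0.79, and 0.73 without the 2 libraries farthest from the median of Tnf), Dedd2 (0.77) and Senp3 (0.74) for Tnf. They were Scoc (0.83, and 0.79 without 2 libraries), F630028O10Rik (0.80) and Txnip (0.80) for Il1b, and Sirpa (0.88), Fermt3 (0.85) and Dxo (0.84) for Tgfb1. For Mif they were Ndufb11 (0.82), Gm17228 (0.79) and Zfp512 (0.78), of which the first went to 0.60 without the 2 libraries farthest from the median of Mif. For Il1rn they were Dnttip2 (0.82), Nop56 (0.80) and Uggt2 (0.78), for Il16 Aim2 (0.78), Tbccd1 (0.76) and Cxcl14 (0.74), and for Tnfsf9 Xlr3b (0.80, and 0.61 without 2 libraries), Cct5 (0.78) and Acadsb (0.77). Il10 was left out because its mean was under 50. These values describe 20 libraries that share depth and handling, were picked as the highest among all genes and have no p.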

How the data were processed

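Stranded libraries of BMDM total RNA, freed of ribosomal cDNA, were sequenced. The authors trimmed reads with cutadapt, mapped them with STAR to GRCm38 and counted them per gene with FeatureCounts. The deposited signal is a normalized count, for which the authors divided the counts by DESeq2 size factors. Names, coordinates and exon lengths came from GENCODE M21 (14421 of the genes matched). Each column was a whole multiple of its smallest step (tolerance 0.1 reads, 100% of values), which gave the reads behind it. Within groups no 2 libraries were copies (chi-square per degree of freedom 5.23 to 42.3 over 30 pairs).

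Log2(normalized count + 1) entered limma (3.58.1, R 4.3.3, eBayes with trend, two-sided, Benjamini-Hochberg adjustment) for every gene whose mean reached 10. The pseudocount understates changes of low genes. Genes were called at an adjusted p under 0.05. The 8 glucose libraries had a fit of their own, as had the 12 exosome libraries. Exosome libraries share label dates. The mean correlation of deviations between libraries of the same date was 0.012, against -0.004 for other dates, and the paired fit gave an adjusted p of 0.0010 for Il1b with BMDM-HG-exo against PBS. Alternatives used edgeR 4.0.16, DESeq2 1.42.0, TMM factors, quantile normalization, other pseudocounts and filters, no trend, the block and each library left out. Scripts were tested on simulated data. All listed cytokine genes are named. From each companion list, called genes are named, smallest adjusted p first and up to 8 per comparison (Birc3 in high glucose, and Socs3 and Nfil3, are named beyond this after their values were seen, and so is Etv3). Members and lists were chosen with earlier results of these data known. Which gene annotation the reads were counted on is not given in the sources used here. Tables were made in Python (3.11.15) with numpy (2.4.6), scipy (1.17.1) and pandas (2.3.3), and plots with matplotlib (3.10.9).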

Additional observations from a re-analysis of the deposited data

Results flagged for a closer look

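In 4 of 40 gene and group combinations (8 cytokine genes in 5 groups of 4 libraries), 1 library stood apart from the other 3 beyond Dixon's 95% critical value. Chance gives about 1 in 20. Il1b was at 42.3 in BMDM-HG-exo 1, against 88.2 to 94.2 in the others of that group. Without this library the BMDM-HG-exo libraries still lay below all PBS libraries. Il10 was at 57.6 in PBS 2, against 25.6 to 29.1. Mif was at 1016 in PBS 1, against 1220.0 to 1239. Mif was at 791 in normal glucose 3, against 1006 to 1027, and without this library Mif was no longer called in high glucose (log2 fold change 0.14, adjusted p = 0.23).

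For 11 companion genes the effect of high glucose on the cells differed from that of BMDM-HG-exo against BMDM-NG-exo, by limma's test of the difference itself. On the log2 scale the differences were 0.67 for Cd74 (adjusted p = 2.2e-07), 0.71 for Mmp14 (0.027), 0.26 for Tnfrsf1b (1.5e-04), 0.25 for Igf1 (3.3e-04) and 0.29 for Spp1 (0.0019). They were 0.37 for Nfkbia (0.0012), 0.44 for Nfkbiz (0.0025), 0.40 for Tnip3 (0.0014), 0.32 for Skil (1.3e-04), 0.32 for Tgfbi (0.0015) and 0.24 for Birc3 (0.021). All 11 were positive, which means a more upward change in high glucose. This depended on the setting. With quantile normalization 2 receptor genes were positive and 3 negative, and 6 feedback genes were positive and 1 negative. The proteases and carriers and the other TNF ligands then had 1 positive and 1 negative call each. DESeq2 called 1 gene negative in each of the last 3 lists, beside 7 feedback genes, 2 proteases or carriers and 1 ligand positive. Of all 685 genes called for this difference, 472 were positive and 213 negative. Between the exosomes, Cd74 (-0.19), Mmp14 (-0.32), Skil (-0.09), Tgfbi (-0.08) and Birc3 (-0.10) had negative log2 fold changes and the others positive ones, none of them called. Mmp14 was not called in high glucose either (0.39, adjusted p = 0.051). With the label number or date as a replicate block, the calls of Mmp14 (0.097), Nfkbiz (0.057) and Birc3 (0.051) were lost. Without a trend of the variance those of Mmp14 (0.11), Spp1 (0.091), Tgfbi (0.064) and Birc3 (0.051) were lost. With 1 library left out Mmp14 was called in 13 and Birc3 in 16 of 20 fits.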

How the results depend on the processing

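The 48 log2 values of cytokine genes (8 genes in 6 comparisons) were recomputed 1082 times under the alternatives. In 1061 the side of the threshold was kept, in 15 a call was lost, in 6 one was gained, and no called value changed its sign. In 39, of 18 results, an uncalled value changed its sign. Leaving out libraries and the block for the difference of effects were chosen after seeing the data.

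With no trend of the variance, 654 genes were called in high glucose, 95 with BMDM-NG-exo and 295 with BMDM-HG-exo against PBS, 1 between the exosomes, 1 against combined controls and 324 for the difference of effects. The cytokine genes called were then 1 in high glucose and 0 with BMDM-NG-exo. With the replicate block, 788 genes and 1 cytokine gene (Mif lost, adjusted p = 0.28) were called in high glucose, where only 2 numbers are shared, 22 between the exosomes and 296 for the difference. It changed no other cytokine call. Of the companion lists in high glucose, the block left 1 protease or carrier gene called higher and 0 lower, and 2 other cytokine genes higher and 0 lower. Of the feedback genes it left 6 higher and 0 lower, in place of 9 and 1. Between the exosomes, 5 genes were called with a pseudocount of 5, a filter at 50 or TMM factors, 1 with edgeR and 25 with DESeq2. Against combined controls, 47 were called with a pseudocount of 5, 136 with DESeq2 and 19 with quantile normalization (9 higher and 10 lower, in place of 10 and 19). For the difference, quantile normalization gave 322 higher and 290 lower in place of 472 and 213, and DESeq2 called 1 cytokine gene.

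With 1 library left out, the genes called ranged from 1370 to 2027 in high glucose, 292 to 453 with BMDM-NG-exo and 550 to 759 with BMDM-HG-exo against PBS, 1 to 7 between the exosomes, 1 to 204 against combined controls and 487 to 755 for the difference. The cytokine genes called ranged from 1 to 3, 0 to 2, 1 to 1, 0 to 0, 0 to 0 and 0 to 1. Il10 and Il1b rest on few reads, so changes in them below the intervals given were not detectable. High glucose was compared with mannitol in normal glucose, so glucose and mannitol cannot be told apart. The same holds for the donor cells of the exosomes. Total RNA does not show the secreted proteins.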

Other observations

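Of 36 other cytokine and growth factor genes of macrophages 16 had values, and 5 of the 16 were called in high glucose, beside 13.3% of all genes. Il12a, Il12b, Il23a, Ifnb1, Csf2 and Csf3 were among those without values. In high glucose, Spp1, the gene of osteopontin (log2 fold change 0.43, limma adjusted p = 5.8e-10), and Igf1 (0.27, adjusted p = 1.3e-07) rose. Vegfa (-0.18), Il18bp, the gene of a soluble inhibitor of IL-18 (-0.46, adjusted p = 0.028), and Pdgfb (-0.16) fell, but without a trend of the variance none of these was called lower. With BMDM-HG-exo against PBS, Spp1 rose (0.27, adjusted p = 3.8e-06) and Vegfa fell (-0.16). With BMDM-NG-exo Pdgfb was the 1 call (-0.22). Against the combined controls Spp1 was called (0.21, adjusted p = 0.038), and stayed so in 6 of 12 fits with 1 library left out. With 1 library left out, Vegfa with BMDM-HG-exo and Pdgfb with BMDM-NG-exo each stayed called in 6 of 12 fits, and in high glucose Il18bp in 5 and Pdgfb in 2 of 8.

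Of 16 other ligands of the TNF superfamily 7 had values. The share called among all genes was 13.3% in high glucose, and 3% with BMDM-NG-exo and 4.84% with BMDM-HG-exo against PBS. Of the 7 ligands, Tnfsf10, the gene of TRAIL, was the 1 called in each experiment. It was at 196 ± 19.1 in high and 114 ± 23.6 in normal glucose (SD, n = 4 each), a log2 fold change of 0.80 (SE 0.18, adjusted p = 0.0018). With PBS it was at 135 ± 19.4, with BMDM-NG-exo at 77.8 ± 16.4 and with BMDM-HG-exo at 70.9 ± 20.7. It fell with BMDM-HG-exo (-0.96, SE 0.25, adjusted p = 0.013), and with BMDM-NG-exo the log2 fold change was -0.80 (adjusted p = 0.068). The call with BMDM-HG-exo was kept in 10 of 12 fits with 1 library left out and was lost without a trend of the variance (adjusted p = 0.071).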
